A study of Mus musculus with 9 samples.

Results

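The Hox genes encode homeodomain transcription factors that stand side by side in 4 clusters, HoxA to HoxD, and assign position along the body axis. They were taken here as every mouse gene whose symbol is Hox, a cluster letter and a paralogue number, with each array probe named through its accession. This gave 39 genes, 11 in HoxA, 10 in HoxB, 9 in HoxC and 9 in HoxD, measured by 43 of the 55681 probes, among 20656 genes with a symbol in all. The study asked which genes respond to the GSK3 inhibitor CHIR99021 and to AICAR, a nucleoside that cells turn into an activator of the kinase AMPK. The cells were J1, an established embryonic stem cell line of the 129S4/SvJae strain, adapted to gelatin-coated plates and kept in 1000 U/mL of the cytokine LIF. The groups, treated for 24 h, were 3 µM CHIR99021, 1 mM AICAR and DMSO, with 3 arrays each.

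GSK3 marks beta-catenin for destruction, so its inhibition raises beta-catenin and activates TCF/LEF factors at Wnt target genes. In the embryo, Wnt signals at the posterior end switch on the caudal genes (Cdx), whose proteins bind and activate central Hox genes, while retinoic acid activates genes at the 3′ end of the clusters. Low paralogue numbers lie at that 3′ end and act in the hindbrain, and high numbers act in the posterior trunk, limbs and tail. In embryonic stem cells, the Polycomb complexes hold the clusters mostly silent.

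Arrays of a group correlated at 0.9952 to 0.9968 across the features tested, and arrays of different groups at 0.9731 to 0.9828. Every group had its own slide and its own scan, and the effects of slide and of treatment cannot be told apart. Whether replicates were separate cultures is not stated in the labels, and the p-values reflect variation among these arrays, part of which may be technical. All 10 stem cell markers, among them Pou5f1, Sox2 and Nanog, were well above background in every group. Their levels were not all unchanged. With CHIR99021 3 rose and 4 fell, and with AICAR 5 rose and 3 fell. Log2 fold changes ran from -2.27 to 0.73 with CHIR99021 and from -2.67 to 0.46 with AICAR, lowest for Dnmt3l in both. Fibroblasts, the usual feeder cells, express Hox genes. Of 13 fibroblast markers, Lum, Twist2, Postn, Prrx1 and Mgp were not well above background on any array, and Dcn was not in AICAR. The summed level of the fibroblast list was 3.46 to 3.91 with CHIR99021, 4.09 to 4.88 with AICAR and 2.91 to 3.00 in DMSO, in units of each array's 75th percentile, against 567 to 593, 615 to 660 and 654 to 672 for the stem cell list. Levels of different probes are not comparable, so the 2 sums do not measure a share of fibroblast RNA. Of the 8 tested fibroblast genes, 2 rose and 2 fell with CHIR99021, and 3 rose and 4 fell with AICAR. In these comparisons 51.0% and 60.5% of all features passed the same test. Thy1 and Fbln1 had the highest levels of the list in every group and weigh most in its sums. Both rose with AICAR, as did Pdgfra, while Col1a1, Col1a2, Col6a3 and Dcn fell. The part of fibroblast RNA in the Hox results was not tested. In bulk RNA, fewer cells expressing a gene and less RNA per cell cannot be told apart.

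Promoter sequences are shown for a few members that the results below turn on. RefSeq promoters of build GRCm38.p6 were found for 22 of the 39 genes, 24 windows of 300 bases in all (250 before the start and 50 after it). The motifs searched on both strands were CTTTGAT (TCF/LEF), TTTATG (CDX), AGGTCA (retinoic acid receptor half-site) and TGATNNAT (PBX-HOX), and an overlap between motifs was allowed. Below are the 250 bases before the start, 5′ to 3′, of 5 genes, with every match to these motifs in capitals. Hoxb1 is shown for its fall under AICAR, Hoxb8, Hoxd4 and Hoxd9 for their rises under CHIR99021, and Hoxd8 as the one member with TCF/LEF letters. They were chosen after their values were seen.
Hoxb1, chr11:96365508-96365757, plus strand: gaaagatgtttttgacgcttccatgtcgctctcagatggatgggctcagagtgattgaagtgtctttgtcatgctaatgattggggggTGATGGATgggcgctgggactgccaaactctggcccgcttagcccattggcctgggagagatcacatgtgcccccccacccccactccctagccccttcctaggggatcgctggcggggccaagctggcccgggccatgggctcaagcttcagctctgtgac
Hoxb8, chr11:96281655-96281904, plus strand: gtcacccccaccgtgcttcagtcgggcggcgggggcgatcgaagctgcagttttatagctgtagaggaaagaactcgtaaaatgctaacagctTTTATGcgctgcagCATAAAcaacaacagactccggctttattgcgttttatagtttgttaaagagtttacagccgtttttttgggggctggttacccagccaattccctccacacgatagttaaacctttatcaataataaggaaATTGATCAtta
Hoxd4, chr2:74721728-74721977, plus strand: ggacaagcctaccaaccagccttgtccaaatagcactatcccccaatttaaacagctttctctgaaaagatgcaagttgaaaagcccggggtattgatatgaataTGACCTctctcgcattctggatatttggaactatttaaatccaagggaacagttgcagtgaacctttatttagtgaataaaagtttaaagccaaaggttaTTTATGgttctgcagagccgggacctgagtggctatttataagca
Hoxd8, chr2:74704365-74704614, plus strand: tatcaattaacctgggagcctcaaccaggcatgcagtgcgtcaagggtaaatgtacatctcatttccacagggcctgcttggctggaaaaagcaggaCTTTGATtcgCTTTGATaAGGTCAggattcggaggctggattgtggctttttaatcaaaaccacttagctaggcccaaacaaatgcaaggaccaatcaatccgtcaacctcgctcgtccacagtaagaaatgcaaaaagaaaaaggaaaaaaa
Hoxd9, chr2:74697513-74697762, plus strand: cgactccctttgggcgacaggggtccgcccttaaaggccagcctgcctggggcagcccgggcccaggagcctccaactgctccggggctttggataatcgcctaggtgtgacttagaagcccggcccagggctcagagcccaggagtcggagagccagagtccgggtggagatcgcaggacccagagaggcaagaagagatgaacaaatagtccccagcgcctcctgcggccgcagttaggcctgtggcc

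In these windows Hoxb1 held 1 PBX-HOX match and Hoxb8 held 2 CDX matches and 1 PBX-HOX match. Hoxd4 held 1 half-site, 1 CDX match before the start and another 21 bases after it, where no letters are printed. Hoxd8 held 2 TCF/LEF matches 10 bases apart, followed by 1 half-site. Hoxd9 held no match to any of the 4 motifs. CDX letters were in 5 of the 24 Hox windows, or 20.8%, against 11.9% of 32851 RefSeq promoters of the same length. Half-sites were in 7, or 29.2%, against 16.3%, PBX-HOX letters in 4, or 16.7%, against 8.85%, and TCF/LEF letters in 1, or 4.17%, against 3.73%. A match of this kind is a description of the letters only.

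Hox transcripts were detected in every group. Of the 39 genes, 26 were well above background on all 3 CHIR99021 arrays and 10 on none, 19 and 19 with AICAR, and 21 and 15 in DMSO. HoxB had the most complete detection, with all 10 genes on all 3 CHIR99021 arrays, 6 on all 3 AICAR arrays and 9 on all 3 DMSO arrays. HoxC and HoxD were sparse in DMSO, where 2 of 9 genes each were above background on all 3 arrays.

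A gene was tested when 3 or more of the 9 arrays showed its probe well above background, as was true for 27 Hox genes, 8 in HoxA, 10 in HoxB, 4 in HoxC and 5 in HoxD. The 12 others lie mostly at the 5′ end of the clusters. Hoxa11, Hoxa13, Hoxc5, Hoxc8, Hoxc10, Hoxc11, Hoxd3, Hoxd10 and Hoxd12 were above background on no array. Hoxa10, which acts in the uterus and the hindlimb, was above background on 2 CHIR99021 arrays alone, so no fold is given, and it was not tested. Hoxc12 was above background on 1 CHIR99021 array and Hoxd11 on 1 AICAR array. Single values of these 12 genes lay between -8.38 and -4.57, as log2 signal minus the array's 75th percentile, the scale of every level given here. Since a gene can pass the filter through the group where it is high, the tested genes are not a neutral sample of the 39.

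**Figure D1:**
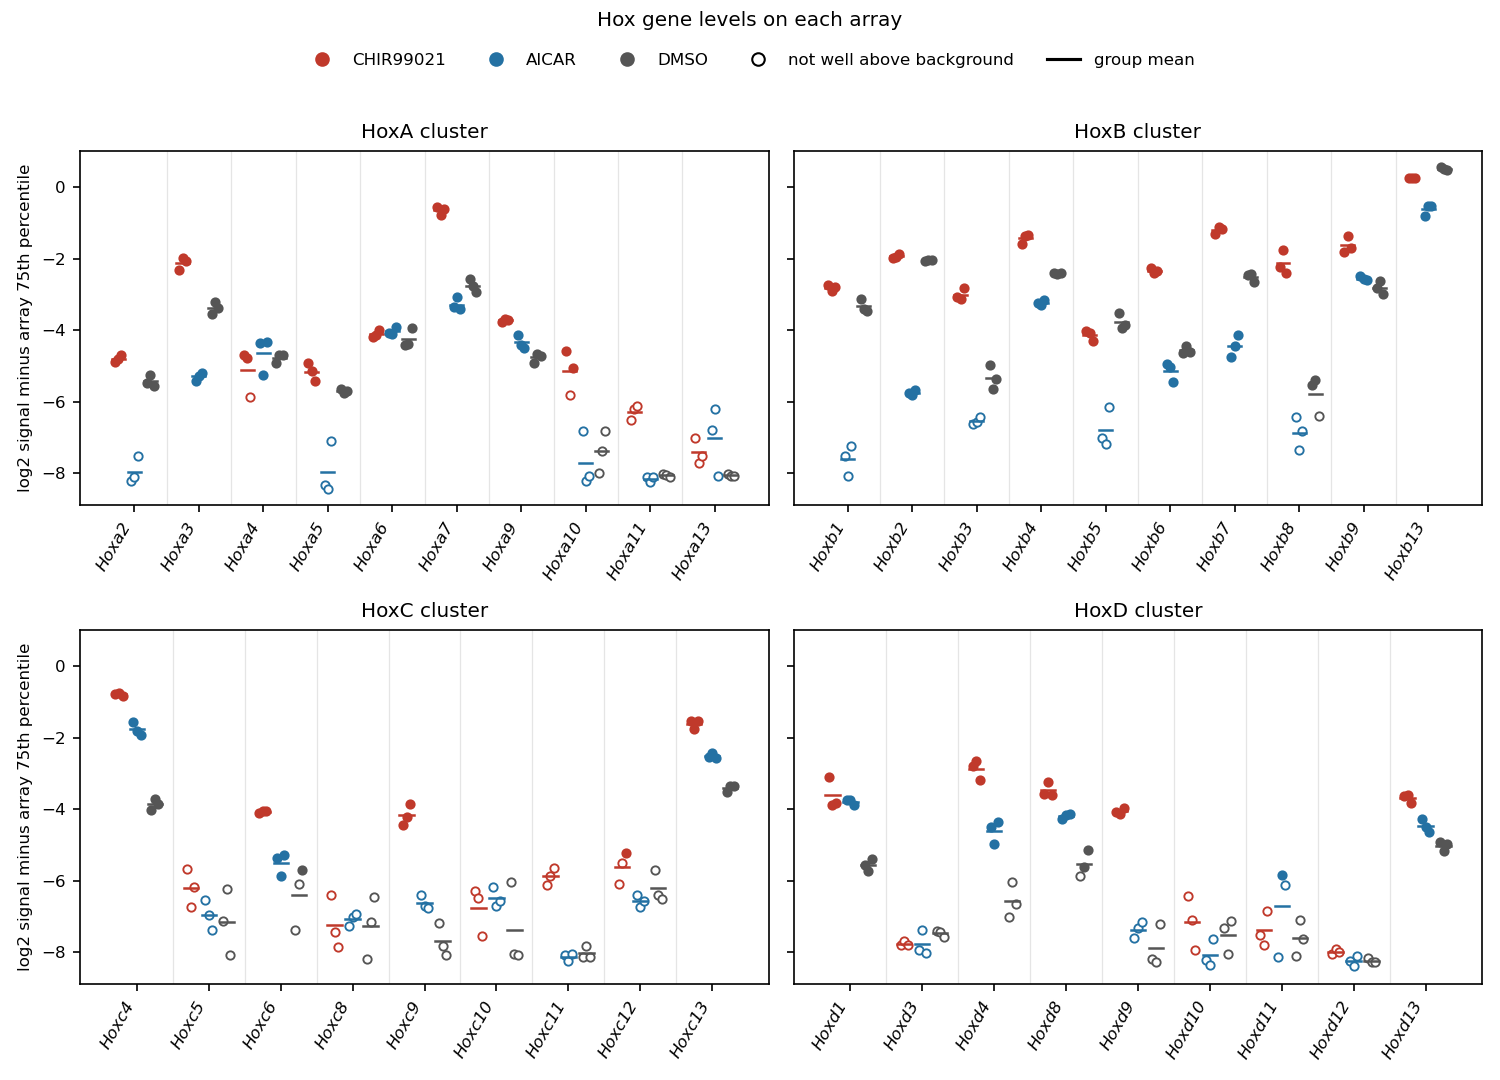
Levels of Hox genes on every array, as log2 signal minus the array's 75th percentile, for CHIR99021 (red), AICAR (blue) and DMSO (grey), with open circles for arrays not well above background and bars at group means. Levels are comparable within a gene only, and in HoxC and HoxD the blue points of Hoxc4, Hoxc13, Hoxd1, Hoxd4, Hoxd8 and Hoxd13 lie above the grey ones, while in HoxB most lie below.

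CHIR99021 raised genes of all 4 clusters. Of the 27 tested Hox genes 20 rose and 1 fell, 21 in all, where 51.0% of all 26864 features were called, 30.4% higher and 20.5% lower. Their median log2 fold change was 1.33, against 0.07 over all features. It was 0.68 with normexp, another background correction, whose offset of 50 draws changes of dim probes towards 0. With normexp 23 rose and 1 fell. The CHIR99021 and DMSO arrays did not overlap for 25 of the 27, as was the case for 63.3% of all features. By cluster, 5 of 8 genes rose in HoxA, 6 of 10 in HoxB, 4 of 4 in HoxC and 5 of 5 in HoxD, with medians of 0.83, 1.08, 2.70 and 2.07. Hoxc9 and Hoxd9 passed the filter through the CHIR99021 arrays alone, where they were high, so their calls are not independent of the filter. With the 3 genes not above background in DMSO set at their lower bound, the HoxC and HoxD medians were 2.11 and 2.02. The 1 gene that fell was Hoxb13. A gene is said to have risen or fallen where the Benjamini-Hochberg adjusted p of limma over all features was under 0.05.

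Under AICAR most HoxB genes fell and most tested HoxC and HoxD genes rose. Of 27 tested genes 8 rose and 13 fell, where 60.5% of all features were called, 30.9% higher and 29.6% lower. The 13 that fell were 4 of 8 in HoxA and 9 of 10 in HoxB, and those that rose were 1 of 8 in HoxA, 3 of 4 in HoxC and 4 of 5 in HoxD. No HoxB gene rose and no HoxC or HoxD gene fell, and at an unadjusted p under 0.05 the counts over the 27 were again 8 and 13. With spike-in scaling 11 rose, Hoxb9 among them, and 12 fell, and all 9 tested HoxC and HoxD genes rose. Hoxc9 counts as a rise although neither group was above background. With genes that 1 group alone detected set at their bound, and with Hoxc9 and Hoxd9 left out because neither group detected them, the cluster medians were -0.15 in HoxA, -0.98 in HoxB, 0.89 in HoxC and 1.40 in HoxD, against 0.03 over all features. Hoxb8 is among the genes set at their bound, though only 2 of its 3 DMSO arrays were above background. The median of all 27 fitted values was 0.03, and -0.26 with the genes at their bound. With spike-in scaling it was 0.23, and so was that of all features. The AICAR and DMSO arrays did not overlap for 22 of the 27, as was the case for 67.1% of all features.

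Both comparisons use the same DMSO arrays. Of the 27 genes, 8 were higher with both treatments (Hoxa9, Hoxc4, Hoxc9, Hoxc13, Hoxd1, Hoxd4, Hoxd8 and Hoxd13). Another 8 were higher with CHIR99021 and lower with AICAR (Hoxa2, Hoxa3, Hoxa7, Hoxb3, Hoxb4, Hoxb6, Hoxb7 and Hoxb8). Lower with AICAR and not called with CHIR99021 were 4 (Hoxa5, Hoxb1, Hoxb2 and Hoxb5), higher with CHIR99021 and not called with AICAR were 4, among them Hoxb9, Hoxc6 and Hoxd9, Hoxb13 was lower with both, and Hoxa4 and Hoxa6 passed in neither.

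**Figure D2:**
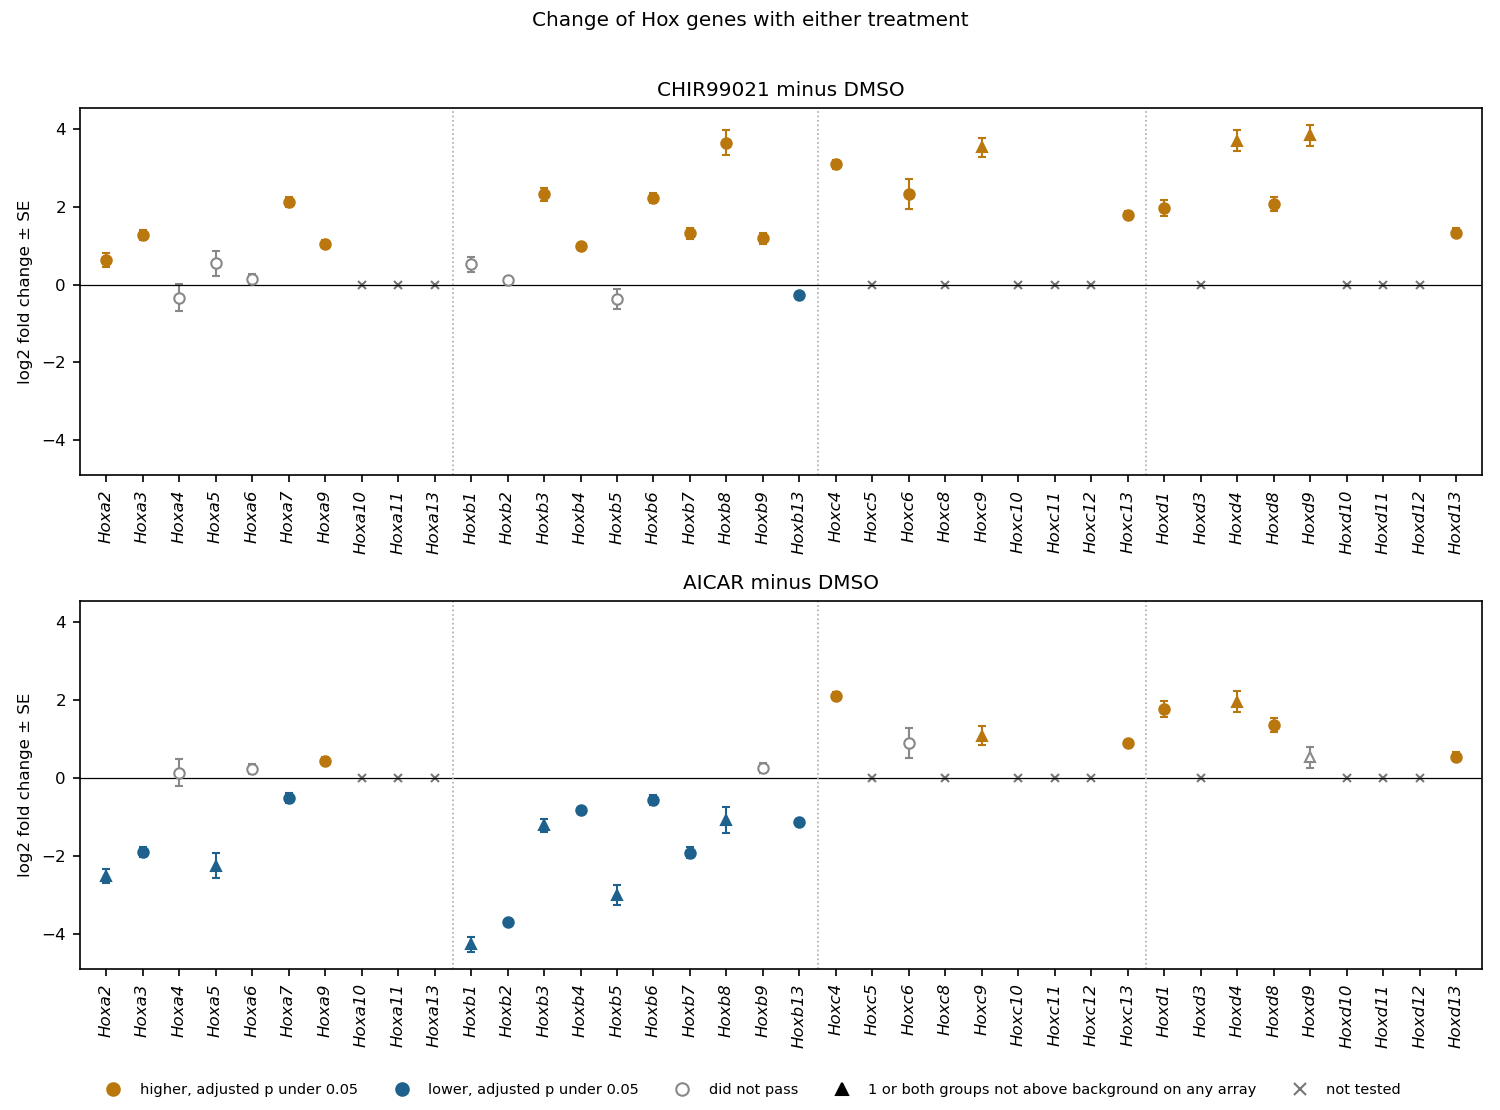
Log2 fold change with its standard error for tested Hox genes, in order of cluster and paralogue number, for CHIR99021 minus DMSO (top) and AICAR minus DMSO (bottom), with filled symbols for genes that passed and crosses for genes not tested. In the lower panel 9 of the 10 HoxB genes lie below 0 and the HoxC and HoxD genes lie above it.

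Hoxa2 and Hoxa3, anterior genes of HoxA, rose with CHIR99021 and fell with AICAR. Hoxa2, the gene that gives the second pharyngeal arch its identity, was at -4.89, -4.81 and -4.70 on the CHIR99021 arrays, at -8.23, -8.12 and -7.52 on the AICAR arrays and at -5.48, -5.26 and -5.55 on the DMSO arrays. It was not well above background on any AICAR array and was at least 1.53-fold lower there than in DMSO, with an adjusted p of 1.02e-05. With CHIR99021 it was higher by 0.63 ± 0.18 (adjusted p = 0.0188), a call lost without CHIR99021 replicate 3 (adjusted p = 0.0582), DMSO replicate 1 (0.0548) or DMSO replicate 3 (0.0611), and with spike-in scaling (0.0560). Hoxa3, needed for the thymus and parathyroid glands, had levels of -2.32, -1.98 and -2.06 with CHIR99021, -5.41, -5.28 and -5.19 with AICAR and -3.55, -3.22 and -3.39 in DMSO. The 3 groups did not overlap, with 1.27 ± 0.12 for CHIR99021 and -1.91 ± 0.12 for AICAR against DMSO.

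Among the central HoxA genes, Hoxa4 did not pass and its AICAR and DMSO arrays overlapped. It was at -5.12 ± 0.66 with CHIR99021, -4.64 ± 0.52 with AICAR and -4.78 ± 0.13 in DMSO (mean ± SD, n = 3 each). Hoxa5, which acts in the lung and the neck-to-thorax boundary of the spine, measured -4.93, -5.14 and -5.41 with CHIR99021, against -8.33, -8.44 and -7.10 with AICAR and -5.66, -5.75 and -5.70 in DMSO. It was not well above background with AICAR, at least 1.27-fold lower than in DMSO (adjusted p = 0.000526). With CHIR99021 its change was 0.54 ± 0.33 and did not pass (adjusted p = 0.201). It did pass without AICAR replicate 3, whose value was the highest of that group (adjusted p = 0.0081). The change also passed with normexp (adjusted p = 0.0479) and with 2 groups in the fit (0.0144). Hoxa6 was at -4.11 ± 0.10 with CHIR99021, -4.03 ± 0.11 with AICAR and -4.25 ± 0.27 in DMSO (mean ± SD, n = 3 each). It passed in neither comparison, yet without DMSO replicate 3 it was higher with CHIR99021 by 0.30 (adjusted p = 0.0306) and with AICAR by 0.37 (adjusted p = 0.00952). With normexp it passed in both, by 0.18 with CHIR99021 (adjusted p = 0.0226) and by 0.17 with AICAR (0.0234).

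Hoxa7 and Hoxa9, the more posterior genes of this cluster that were tested, both rose with CHIR99021. Hoxa7, a target of Cdx proteins in the trunk, lay at -0.56, -0.79 and -0.62 with CHIR99021, at -3.37, -3.08 and -3.41 with AICAR and at -2.59, -2.77 and -2.94 in DMSO. It rose with CHIR99021 by 2.11 ± 0.12 and fell with AICAR, with a log2 fold change of -0.52 ± 0.12. Hoxa9, a regulator of blood stem cells, was at -3.78, -3.68 and -3.73 on the CHIR99021 arrays, at -4.13, -4.41 and -4.50 on the AICAR arrays and at -4.91, -4.67 and -4.71 on the DMSO arrays. It was the HoxA gene that rose with AICAR, by 0.42 ± 0.10 (adjusted p = 0.00866), against 1.04 ± 0.10 with CHIR99021. The AICAR call was lost with the mean of its 2 probes (adjusted p = 0.0844).

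At the 3′ end of HoxB, Hoxb1 and Hoxb2 fell with AICAR and did not pass with CHIR99021. Hoxb1, which specifies a hindbrain segment that gives rise to the facial nerve, had levels of -2.74, -2.92 and -2.79 with CHIR99021, -7.51, -8.06 and -7.25 with AICAR and -3.12, -3.41 and -3.46 in DMSO. It was above background on every CHIR99021 and DMSO array and on no AICAR array, which made it at least 6.54-fold lower with AICAR than in DMSO (adjusted p = 1.17e-06). Its CHIR99021 and DMSO arrays did not overlap, but the change of 0.52 ± 0.19 did not pass (adjusted p = 0.0553). It passed without AICAR replicate 2 (adjusted p = 0.00838) or 3 (0.0301), and with normexp (0.000959), quantile normalization (0.0240) and the series matrix values (0.0187). Hoxb2, which acts with Hoxb1 in the hindbrain, measured -1.98, -1.96 and -1.88 with CHIR99021, against -5.77, -5.81 and -5.67 with AICAR and -2.06, -2.03 and -2.05 in DMSO. This gene was above background throughout, so its fall with AICAR was measured on both sides, with a log2 fold change of -3.70 ± 0.05, while with CHIR99021 it was 0.11 ± 0.05 (adjusted p = 0.123).

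Hoxb3 and Hoxb4 moved in opposite directions under the treatments. Hoxb3, another hindbrain and pharyngeal gene, lay at -3.07, -3.13 and -2.83 with CHIR99021, at -6.63, -6.58 and -6.43 with AICAR and at -4.97, -5.64 and -5.37 in DMSO. It rose with CHIR99021 by 2.32 ± 0.16 and was at least 1.64-fold lower with AICAR (adjusted p = 0.000346). Its other probe differed by 0.64 with CHIR99021, a smaller change than at the brighter one, and neither probe was above background with AICAR, so no sizes are compared there. Hoxb4, known for expanding blood stem cells, was at -1.60, -1.37 and -1.33 on the CHIR99021 arrays, at -3.25, -3.31 and -3.16 on the AICAR arrays and at -2.39, -2.44 and -2.42 on the DMSO arrays. The 3 groups did not overlap, with 0.98 ± 0.08 for CHIR99021 and -0.82 ± 0.08 for AICAR.

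Hoxb5 did not pass with CHIR99021 and fell with AICAR. Hoxb5, which acts in the enteric nervous system, had levels of -4.03, -4.08 and -4.31 with CHIR99021, -7.01, -7.18 and -6.15 with AICAR and -3.53, -3.94 and -3.86 in DMSO. All 3 CHIR99021 values lay below the DMSO ones, with a change of -0.36 ± 0.26 that did not pass (adjusted p = 0.276). With AICAR it was at least 4.8-fold lower than in DMSO (adjusted p = 2.80e-05).

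Of the genes from Hoxb6 to Hoxb9, all 4 rose with CHIR99021. Hoxb6, a trunk gene, measured -2.27, -2.41 and -2.34 with CHIR99021, against -4.95, -5.04 and -5.44 with AICAR and -4.63, -4.46 and -4.63 in DMSO. It rose by 2.23 ± 0.12 with CHIR99021 and fell with AICAR, with -0.58 ± 0.12, a call lost with normexp (adjusted p = 0.102). Hoxb7, also a trunk gene, lay at -1.30, -1.11 and -1.18 with CHIR99021, at -4.74, -4.44 and -4.15 with AICAR and at -2.46, -2.44 and -2.66 in DMSO. Its changes were 1.32 ± 0.14 with CHIR99021 and -1.92 ± 0.14 with AICAR, and no group overlapped another. Hoxb8, which blocks the maturation of myeloid progenitors and is active in the precursors of some microglia, was at -2.24, -1.76 and -2.41 on the CHIR99021 arrays, at -6.43, -7.36 and -6.82 on the AICAR arrays and at -5.53, -5.40 and -6.41 on the DMSO arrays. It had the largest HoxB rise with CHIR99021, 3.64 ± 0.33, and 2 of the 3 DMSO arrays were above background. It was lower with AICAR (adjusted p = 0.0209), where it was not above background, and no fold is given. That call was lost without AICAR replicate 2 (adjusted p = 0.0665), DMSO replicate 1 (0.0676) or DMSO replicate 2 (0.0701). It was also lost with spike-in scaling (0.0542) and with normexp (0.422). Hoxb9, which patterns the ribs, had levels of -1.82, -1.36 and -1.70 with CHIR99021, -2.48, -2.59 and -2.61 with AICAR and -2.82, -2.62 and -3.00 in DMSO. It rose with CHIR99021 by 1.18 ± 0.13 and did not pass with AICAR, at 0.25 ± 0.13 (adjusted p = 0.137).

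Hoxb13 was the 1 tested Hox gene that fell with CHIR99021. Hoxb13, a gene of the prostate, tail and colon that lies apart from the rest of the cluster, measured 0.25, 0.24 and 0.26 with CHIR99021, against -0.81, -0.53 and -0.53 with AICAR and 0.56, 0.50 and 0.47 in DMSO. It fell with AICAR, with a log2 fold change of -1.14 ± 0.08, and slightly with CHIR99021, with -0.26 ± 0.08 (adjusted p = 0.0236). The smaller call was lost without CHIR99021 replicate 1 (adjusted p = 0.0598), 2 (0.0594) or 3 (0.0546), or without DMSO replicate 1 (0.0739) or 2 (0.0553), while its value stayed between -0.28 and -0.24 in the fits that left out an array.

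In HoxC the 4 tested genes rose with CHIR99021. Hoxc4, the gene at the 3′ end of the cluster, lay at -0.77, -0.74 and -0.83 with CHIR99021, at -1.55, -1.82 and -1.93 with AICAR and at -4.02, -3.73 and -3.85 in DMSO. The 3 groups were far apart, and it rose by 3.08 ± 0.11 with CHIR99021 and by 2.10 ± 0.11 with AICAR, the largest fitted AICAR rise among the tested Hox genes. Hoxc6, a gene of the upper thorax and of forelimb motor neurons, was at -4.11, -4.05 and -4.05 on the CHIR99021 arrays, at -5.37, -5.87 and -5.27 on the AICAR arrays and at -7.37, -6.08 and -5.71 on the DMSO arrays. It was above background on 1 DMSO array, rose with CHIR99021 by 2.32 ± 0.39, and did not pass with AICAR, at 0.88 ± 0.39 (adjusted p = 0.0791). Without DMSO replicate 3, the highest of its group, the AICAR change was 1.22 and passed (adjusted p = 0.0242).

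Hoxc9 and Hoxc13 are the posterior HoxC genes that were tested. Hoxc9, which defines thoracic motor neurons, had levels of -4.44, -4.21 and -3.86 with CHIR99021, -6.39, -6.70 and -6.76 with AICAR and -7.18, -7.83 and -8.07 in DMSO. It was above background on the CHIR99021 arrays alone, at least 3.76-fold higher than in DMSO (adjusted p = 1.44e-05). The test with AICAR also passed (adjusted p = 0.00533), but neither group was well above background, so no fold is given, and with normexp the call was lost (adjusted p = 0.125). Hoxc13, which controls hair and nail keratins, measured -1.55, -1.76 and -1.53 with CHIR99021, against -2.55, -2.43 and -2.56 with AICAR and -3.51, -3.36 and -3.35 in DMSO. It rose in both, by 1.79 ± 0.08 with CHIR99021 and 0.89 ± 0.08 with AICAR.

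In HoxD the 5 tested genes rose with CHIR99021 and 4 of them with AICAR. Hoxd1, the 3′ gene, known in pain-sensing neurons of the mouse, lay at -3.09, -3.89 and -3.82 with CHIR99021, at -3.75, -3.75 and -3.89 with AICAR and at -5.56, -5.72 and -5.41 in DMSO. The CHIR99021 and AICAR arrays overlapped each other and stood above DMSO, with 1.96 ± 0.20 and 1.77 ± 0.20. Hoxd4, a gene of the hindbrain and neck vertebrae and a target of retinoic acid, was at -2.78, -2.66 and -3.18 on the CHIR99021 arrays, at -4.51, -4.98 and -4.37 on the AICAR arrays and at -7.00, -6.03 and -6.66 on the DMSO arrays. It was not well above background on any DMSO array. It was at least 9.09-fold higher with CHIR99021 (adjusted p = 1.98e-05) and at least 2.71-fold higher with AICAR (adjusted p = 0.00041).

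Hoxd8, a gene of the trunk whose upstream letters are shown above, had levels of -3.57, -3.23 and -3.62 with CHIR99021, -4.28, -4.16 and -4.13 with AICAR and -5.87, -5.63 and -5.13 in DMSO. It was above background on 2 DMSO arrays and rose by 2.07 ± 0.18 with CHIR99021 and by 1.35 ± 0.18 with AICAR. Hoxd9, a gene of the lower spine and limbs, measured -4.09, -4.13 and -3.96 with CHIR99021, against -7.61, -7.32 and -7.16 with AICAR and -8.19, -8.27 and -7.21 in DMSO. Like Hoxc9 it was above background with CHIR99021 alone, at least 4.06-fold higher than in DMSO (adjusted p = 1.55e-05). No AICAR or DMSO array was well above background. Its AICAR test did not pass (adjusted p = 0.122), but it did without DMSO replicate 3 (adjusted p = 0.00134) and with spike-in scaling (0.0388). Hoxd13, which shapes the digits, lay at -3.63, -3.60 and -3.83 with CHIR99021, at -4.28, -4.50 and -4.65 with AICAR and at -4.91, -5.17 and -4.97 in DMSO. It rose by 1.33 ± 0.11 with CHIR99021 and by 0.54 ± 0.11 with AICAR, and the AICAR call was lost with normexp (adjusted p = 0.0644).

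CHIR99021 and AICAR were also set against each other directly. Of the 27 tested genes 24 were higher with CHIR99021 and 0 lower by limma, where 60.8% of all features were called, 36.2% higher and 24.6% lower. At an unadjusted p under 0.05 the counts were 24 higher and 0 lower. Hoxc9 and Hoxd9, which passed the filter through the CHIR99021 arrays alone, are among the 24. The median was 2.45, against 0.10 over all features. It was 1.74 with the 8 genes that AICAR arrays did not detect set at their bound, and 0.71 with normexp, with which 24 were again higher. The 10 HoxB genes were all higher, from 0.87 ± 0.08 for Hoxb13 to at least 15.0-fold for Hoxb8 and at least 9.37-fold for Hoxb1. Hoxb2, measured on both sides, differed by 3.81 ± 0.05. With genes at their bound the cluster medians were 1.06 in HoxA, 2.92 in HoxB, 1.21 in HoxC and 0.79 in HoxD. Of the genes that rose with both treatments, Hoxc4 was higher with CHIR99021 than with AICAR by 0.99 ± 0.11, Hoxc13 by 0.90 ± 0.08, Hoxd4 by 1.74 ± 0.27 and Hoxd13 by 0.79 ± 0.11. Hoxd1 did not pass, at 0.19 ± 0.20 (adjusted p = 0.43), nor did Hoxa4 (adjusted p = 0.276) or Hoxa6 (adjusted p = 0.627). With spike-in scaling the calls of Hoxa9 and Hoxd8 were lost (adjusted p = 0.0656 and 0.0739).

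**Figure D3:**
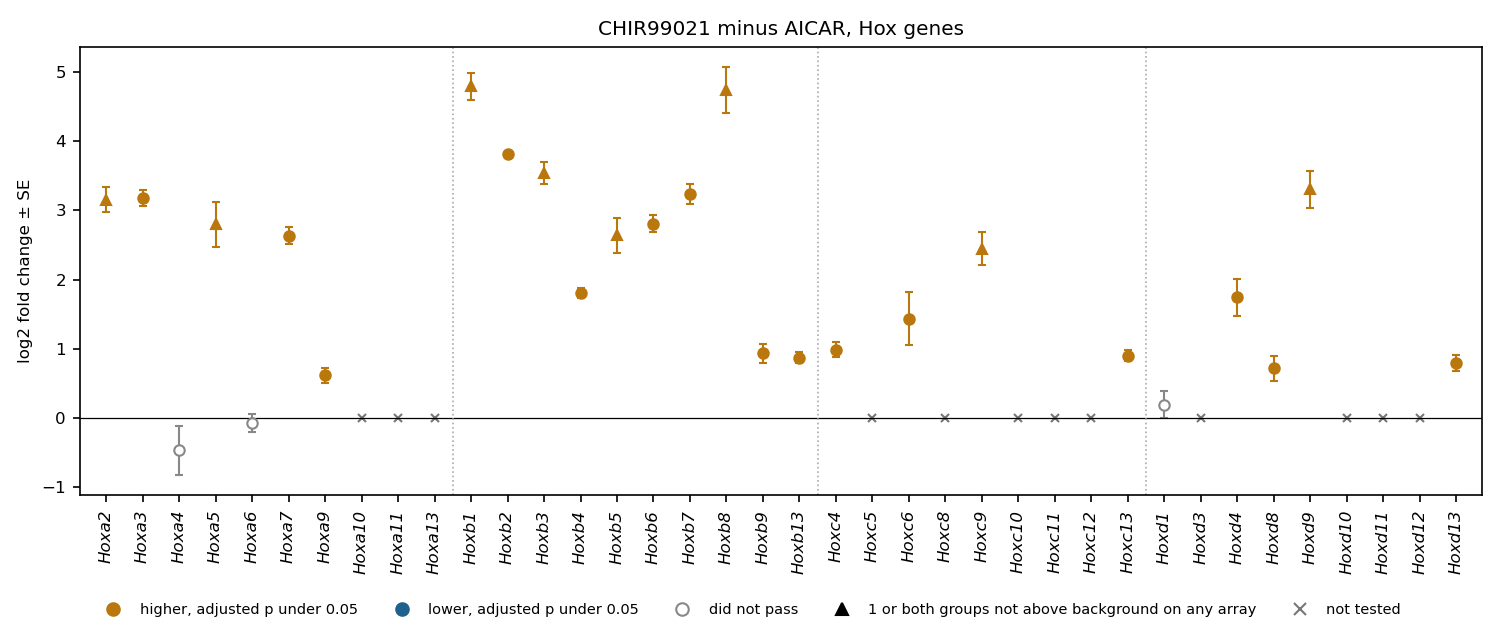
Log2 fold change of CHIR99021 over AICAR with its standard error for tested Hox genes, in order of cluster and paralogue number, with triangles where 1 or both groups were not above background on any array. Fitted values of the triangles are not bounds, and the 3 grey open symbols, Hoxa4, Hoxa6 and Hoxd1, did not pass.

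The genes were also grouped by paralogue number. Of all features, 30.4% were higher and 20.5% lower with CHIR99021, and 30.9% higher and 29.6% lower with AICAR. Among genes numbered 1 to 4, 8 of 11 tested rose with CHIR99021. Of those numbered 5 to 8, 6 of 9 rose, and of those numbered 9 to 13, 6 of 7 rose. The last count includes Hoxc9 and Hoxd9, which passed the filter through the CHIR99021 arrays alone. With AICAR 6 of 11 fell and 3 rose among numbers 1 to 4, 6 of 9 fell and 1 rose among 5 to 8, and 1 of 7 fell and 4 rose among 9 to 13. Among the paralogue numbers with 2 or more genes called for AICAR, 4 held genes called in both directions and 5 in one. Numbers 1, 4, 8 and 13 were divided, with the HoxB gene lower and the called HoxC or HoxD genes higher. In numbers 2, 3, 5 and 7 the called HoxA and HoxB genes were both lower, and in number 9 Hoxa9 and Hoxc9 were both higher. Hoxc9 was not well above background on any AICAR or DMSO array.

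Other probes of these genes were few. The second Hoxa9 probe differed by 0.96 with CHIR99021 and 0.46 with AICAR, close to the 1.04 and 0.42 of the brighter one, though it was above background on no DMSO array. Neither Hoxa13 probe was above background.

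Within the clusters lie genes that are not Hox members. Hoxa11os, the antisense transcript of Hoxa11, was higher with CHIR99021 by 0.70 ± 0.07 and was at 0.02 ± 0.07 with AICAR (adjusted p = 0.795), although Hoxa11 itself was above background on no array. Gm53, a noncoding gene between Hoxb13 and Hoxb9 that was looked up after the values were seen, was higher with CHIR99021 by 0.60 ± 0.10 and at -0.23 ± 0.10 with AICAR (adjusted p = 0.0732). Hoxd3os1 was above background on no array.

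The Cdx genes and Evx1 were compared because they act on, or lie beside, the Hox clusters. Cdx1 was at 6.74, 6.68 and 6.67 on the CHIR99021 arrays, at 1.68, 1.65 and 1.64 on the AICAR arrays and at 0.18, 0.25 and 0.14 on the DMSO arrays. It rose in both, by 6.51 ± 0.05 with CHIR99021 and 1.47 ± 0.05 with AICAR. Cdx2 had levels of 1.94, 1.66 and 1.95 with CHIR99021, -7.89, -6.61 and -7.49 with AICAR and -5.06, -5.36 and -5.85 in DMSO. It rose by 7.27 ± 0.32 with CHIR99021 and was at least 1.54-fold lower with AICAR (adjusted p = 0.00127), where it was not above background, and that call was lost with normexp (adjusted p = 0.177). Cdx4 was above background with CHIR99021 alone, at least 3.27-fold higher than in DMSO. Evx1, the even-skipped gene at the 5′ end of HoxA, was likewise detected with CHIR99021 alone, at least 24.0-fold higher, although its nearest Hox neighbours, Hoxa13 and Hoxa11, were not above background. Evx2, beside HoxD, was above background on no array. Of the ParaHox genes Gsx1, a neural gene, fell with both treatments, with -1.08 ± 0.11 and -1.48 ± 0.11, and Pdx1 was above background on no array. Gsx2, also neural, measured -4.02, -5.57 and -6.11 with CHIR99021, against -5.49, -5.47 and -5.50 with AICAR and -6.31, -7.31 and -6.91 in DMSO. It was above background on 1 of the 3 CHIR99021 arrays, the highest, so no fold is given for CHIR99021 (adjusted p = 0.0267). It was above background on all 3 AICAR arrays and no DMSO array, at least 1.51-fold higher with AICAR (adjusted p = 0.0433), a call lost with normexp (adjusted p = 0.268), quantile normalization (0.0505) and the series matrix values (0.0501).

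Cofactors and regulators of Hox genes were counted by list, and each count stands against the 51.0% of all features called with CHIR99021 and the 60.5% called with AICAR. Of the 9 genes of the TALE class, homeodomain partners that bind DNA with Hox proteins, 2 rose and 5 fell with CHIR99021, and 2 rose and 4 fell with AICAR, with medians of -0.41 and -0.16. With spike-in scaling the AICAR counts of this list were 3 higher and 2 lower, with a median of 0.04. Meis1 fell with both, with -1.18 ± 0.07 for CHIR99021 and -1.04 ± 0.07 for AICAR. Meis2 fell further with AICAR, -1.93 ± 0.05, than with CHIR99021, -0.41 ± 0.05, and the treatments differed by 1.51 ± 0.05 (adjusted p = 1.87e-07). Pbx4 rose with AICAR by 0.72 ± 0.14, and Pknox2 fell with CHIR99021, with -0.82 ± 0.06.

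Of 16 tested retinoic acid genes, 2 rose and 7 fell with CHIR99021, and 7 rose and 8 fell with AICAR, with medians of -0.21 and -0.11, where 51.0% and 60.5% of all features were called. With spike-in scaling the AICAR counts were 7 higher and 4 lower, with a median of 0.09. Crabp2, which carries retinoic acid to its receptor, fell with CHIR99021, with -1.97 ± 0.11, and so did the receptor genes Rarg, with -1.11 ± 0.10, and Rara, with -0.94 ± 0.06. Aldh1a2, an enzyme that makes retinoic acid, rose with CHIR99021 by 1.08 ± 0.10. With AICAR the largest changes were rises of Aldh1a3, another such enzyme, by 2.17 ± 0.49, with 1 DMSO array above background, and of Cyp26b1, which degrades retinoic acid, by 1.10 ± 0.17, and falls of Rdh10, with -0.99 ± 0.17, and Stra6, with -0.91 ± 0.09. Rarg also fell with AICAR, with -0.91 ± 0.10, and so did Rara, with -0.49 ± 0.06, a call lost with spike-in scaling (adjusted p = 0.0867).

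Of 19 tested Polycomb and trithorax genes, 5 rose and 5 fell with CHIR99021, and 4 rose and 10 fell with AICAR, with medians of 0.05 and -0.22, where 51.0% and 60.5% of all features were called. With spike-in scaling the counts were 3 higher and 4 lower with CHIR99021 and 4 higher and 5 lower with AICAR, with medians of -0.0076 and -0.02, and with quantile normalization the CHIR99021 median was -0.0086. Cbx7, a Polycomb reader of methylated histone H3, rose with CHIR99021 by 1.96 ± 0.18 and with AICAR by 0.96 ± 0.18. Phc1, another Polycomb subunit, fell with both, -1.24 ± 0.09 and -0.68 ± 0.09. Ezh2, a methyltransferase of this system, passed in neither, at -0.02 ± 0.05 (adjusted p = 0.789) and -0.04 ± 0.05 (adjusted p = 0.467). Bmi1 and Ash2l fell with AICAR, with -0.88 ± 0.08 and -0.61 ± 0.06, and Ezh1 rose by 0.81 ± 0.04.

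Genes that flank the clusters and are not of the Hox class showed small changes with CHIR99021. Of 14 tested, 6 rose and 2 fell, between -0.38 and 0.43 on the log2 scale, where 51.0% of all features were called. With AICAR 4 rose and 6 fell, where 60.5% of all features were called, between -0.66 and 1.38, the highest being Ttll6, a tubulin-modifying enzyme next to HoxB, which rose by 1.38 ± 0.10 where 9 of the 10 HoxB genes fell. With spike-in scaling the flanking counts were 2 higher and 1 lower with CHIR99021 and 6 higher and 1 lower with AICAR. For CHIR99021 they were 6 and 5 with normexp, and 4 and 5 with quantile normalization and with the series matrix values. For AICAR they were 4 and 5, 6 and 5, and 7 and 5 in that order. Markers of the neuromesodermal and presomitic state were counted as well. Of 7 tested, 5 rose and 0 fell with CHIR99021 by limma (also 5 and 0 at an unadjusted p under 0.05), where 51.0% of all features were called. With spike-in scaling 3 rose. The 5 were T, Cdx2, Nkx1-2 and, with smaller changes, Tbx6, at 0.41 ± 0.10, and Hes7, at 0.37 ± 0.07. Fgf8 did not pass, at -0.21 ± 0.11 (adjusted p = 0.130), and Msgn1 and Wnt3a were above background on no CHIR99021 array. With AICAR 2 rose, Tbx6 and Msgn1, and 2 fell, Cdx2 and Fgf8, where 60.5% of all features were called. Of 7 neural progenitor markers, 2 rose and 5 fell with CHIR99021, and 2 rose and 4 fell with AICAR, against the same 51.0% and 60.5% of all features. Whether a change in the kinds of cell present plays a part in the Hox values was not tested.

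**Figure D4:**
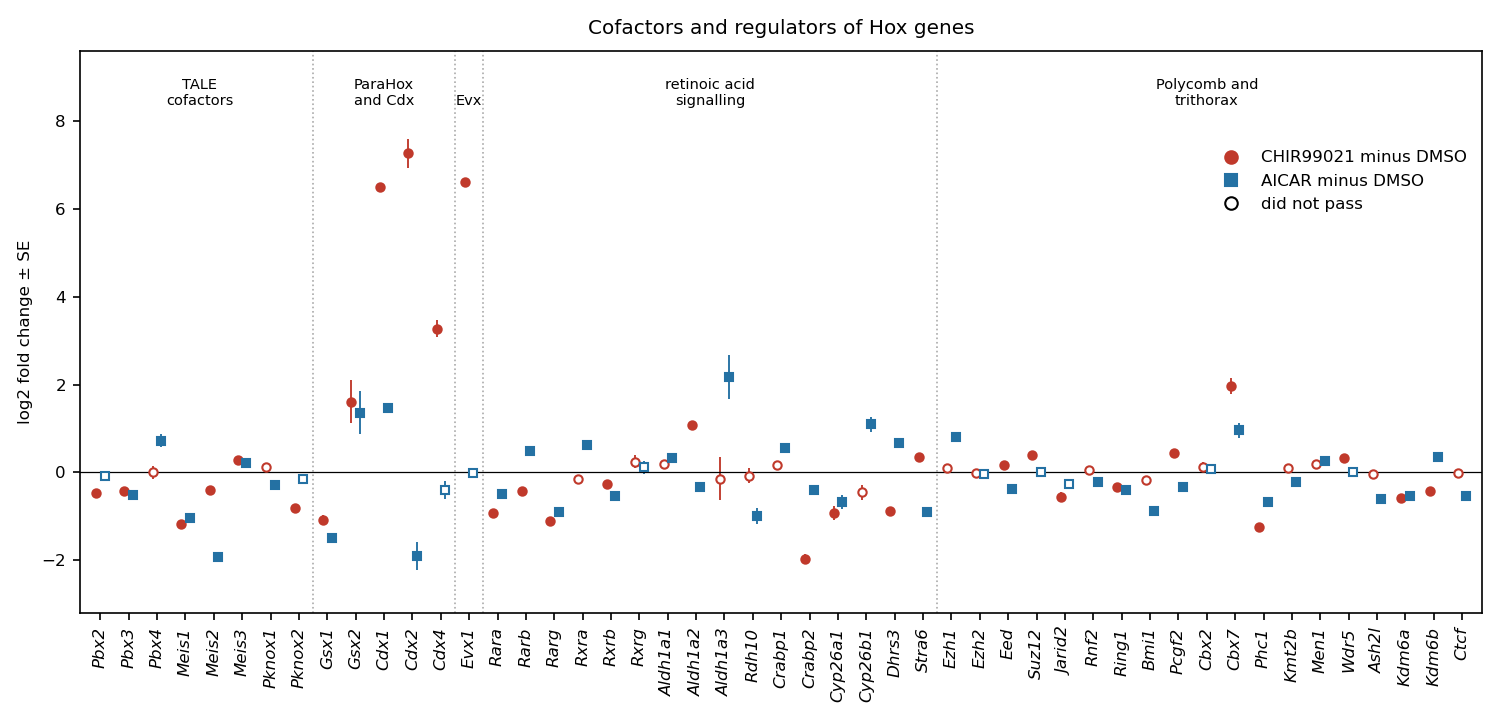
Log2 fold change with its standard error for tested cofactors and regulators of Hox genes, for CHIR99021 minus DMSO (red circles) and AICAR minus DMSO (blue squares), with open symbols where the test was not passed. Cdx1 and Cdx2 with CHIR99021 lie at 6.51 and 7.27, and the TALE, retinoic acid and Polycomb genes lie between -1.97 and 2.17.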

How the data were processed

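RNA of 9 samples labelled CHIR99021, AICAR or DMSO was hybridised to 1-colour Agilent arrays, and all samples were grouped by their labels. The deposited intensity values are Agilent Feature Extraction 10.7.3.1 processed signals, background-subtracted by the scanner software, per the file headers. The series matrix holds the authors' normalized log2 values, used as an alternative only. Control and outlier spots were removed, log2 intensities had the array's 75th percentile subtracted, and each probe's spots were averaged. Probes had to be well above background on 3 or more of 9 arrays, and the brightest probe stood for its gene, which left 26864 features. limma 3.58.1 in R 4.3.3 was fitted to all 9 arrays, with Benjamini-Hochberg adjustment over all features and a threshold of 0.05, and the code was tested on simulated data. Of the 55681 probes, 27229 were named through RefSeq accessions and 28452 were not. Array signals at the 75th percentile were 567 to 617, and the number of arrays limits the precision. A bound ("at least N-fold") sets the bright group's mean against the higher of the dim probe's own value and the lowest signal well above background on each array. It is printed only where the bright group was above background on all 3 arrays. Every array value is given for Hox genes that passed against DMSO, other members by group values or detection, and up to 4 called genes with the largest change per list, besides those a result turns on. A member and a listed cofactor are counted in the totals and not reported here by name. The Hox genes, gene lists and tests were chosen with earlier results of these data known. Alternatives covered background, scaling, filter, probe choice, replicate block, groups in the fit and each array left out. The files carry no mean signal, so normexp used the median signal, with an offset of 50. The files' build is mm9, and no coordinates of the RefSeq table are given beside array values.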

Additional observations from a re-analysis of the deposited data

How the results depend on the processing

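Of the single-gene results recomputed, 1322 kept their direction and side of the threshold, 20 gained and 20 lost a call, and 6 turned sign, none of which had passed. These values were 0.007 with normexp for Hoxa6 and -0.0631 with spike-in scaling for Hoxd1, both for CHIR99021 against AICAR, and the others came from leaving out 1 array. There Hoxa4 ranged from -0.556 to 0.0368 for CHIR99021 against DMSO (above 0 without CHIR99021 replicate 3) and from -0.0232 to 0.430 for AICAR against DMSO (below 0 without AICAR replicate 3, and -0.015 without AICAR replicate 1). Hoxd1 ranged from -0.0611 to 0.338 for CHIR99021 against AICAR (below 0 without CHIR99021 replicate 1). The cause was not tested. The replicate block, 2 groups in the fit and leaving out an array of the third group can change a p-value but not a fold change. For part of the 1322 the direction was therefore fixed in advance. Leaving out 1 array gave 11747 to 14027 features called for CHIR99021 against DMSO, 14569 to 16157 for AICAR against DMSO and 14934 to 16039 for CHIR99021 against AICAR, and 19 to 23, 20 to 24 and 24 to 24 Hox genes. Requiring all 9 arrays above background left 15 Hox genes to test, of which 13, 12 and 13 were called. Of all 23602 features under that filter, 13182, 15275 and 15305 were called. Spike-in scaling moved the median of all features to 0.23 for AICAR against DMSO and called 9035 features for CHIR99021 against DMSO. Its higher and lower calls were 4494 and 4541 for CHIR99021 against DMSO (8180 and 5516 in the main setting), 10304 and 3703 for AICAR against DMSO (8309 and 7943), and 3432 and 8716 for CHIR99021 against AICAR (9722 and 6606). Quantile normalization gave 7811 and 7585 for CHIR99021 against AICAR and the series matrix values 7705 and 7646. Normexp made the change of 20 of 21 called Hox genes smaller for CHIR99021 against DMSO, 21 of 21 for AICAR against DMSO and 24 of 24 for CHIR99021 against AICAR, with median ratios of 0.433, 0.269 and 0.440 and the same sign in each, and the median of the 27 was 0.68, 0.005 and 0.71. The normexp offset of 50 draws changes of dim probes towards 0, so smaller sizes were built into that setting. Deviations of same-numbered arrays from their group means correlated at -0.0549 to 0.0877. With 3 arrays per group these values cannot show whether the numbers pair cultures, and the labels do not say. The replicate block called 22, 21 and 24 Hox genes and 12713, 15460 and 15682 features, Hoxb1 passing for CHIR99021 against DMSO (adjusted p = 0.0440). Signal near background limits the folds of HoxC and HoxD genes in DMSO.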
